A study of Rattus norvegicus with 4 samples.

Results

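The 10 genes described here build, coat and break down the lipid droplet, the cell's store of triacylglycerol. They are G0s2, Pnpla2, Abhd5, Lipe, Mgll, Plin2, Cidea, Dgat1, Dgat2 and Lpl. They were chosen by name and pathway after the difference of G0s2 between AMH and control arrays was already known from these data. Their values in that comparison are therefore given as a description, with no p-value, and counts of calls among them are printed only beside the share over all genes. Of 14218 genes that the platform annotation names singly, these 10 were measured by 17 probe sets. Of those, 13 were bright enough to enter the fit, at least 1 for each gene.

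The arrays came from ovaries of female rats (Rattus norvegicus) removed on postnatal day 4 and cultured whole on floating filters for 10 days. The control group had no added hormone, and the treated group had 50 ng/mL anti-Müllerian hormone (AMH), a TGF-beta family hormone from granulosa cells of growing follicles. The series title asks how AMH acts on ovarian transcripts as it holds back the primordial to primary follicle transition. Each group had 2 independent RNA pools of about 10 ovaries, each on 1 Affymetrix array, so p-values measure the spread between pools. The strain was not stated. The medium of both groups held 200 µg/mL insulin, a hormone that restrains lipolysis, together with 0.1% BSA and 0.1% Albumax, a lipid-rich albumin. In pooled whole organs, fewer cells of a type and less RNA per cell cannot be told apart.

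Triacylglycerol is made from diacylglycerol by DGAT enzymes, packed into droplets under a coat of perilipins, and released in steps by lipases. ATGL, encoded by Pnpla2, takes the first fatty acid, hormone-sensitive lipase (Lipe) the next and monoacylglycerol lipase (Mgll) the last. ABHD5 activates ATGL and G0S2 inhibits it by direct binding. In the ovary, droplets are prominent in oocytes and in steroid-making cells, where they also hold cholesterol esters.

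Each difference below is the AMH mean less the control mean of log2(intensity + 16), and its error (±) is the standard error from limma (n = 2 arrays per group). The fit tested 18625 of 31099 probe sets, those with a mean above an intensity of about 27.8, here called the filter level. A gene is represented by its brightest tested probe set, and a gene or probe set is called when its adjusted p is under 0.05. Of 10622 tested genes 22.9% were called, 11% higher and 11.9% lower with AMH, so a call was common in this comparison. The ratio of signal at the 3′ end to that at the 5′ end, a proxy for RNA integrity, differed by group. For GAPDH it was 1.17 and 1.27 in control and 6.56 and 6.37 with AMH. For beta-actin it was 3.17 and 4.6 in control and 10.7 and 14.4 with AMH. The part of this 3′/5′ ratio in the differences below was not tested. The chip identifiers name a different run for each group, so run and treatment cannot be told apart. Granulosa and oocyte markers were present on all 4 arrays, with Foxl2 at 395.1 to 617 and Zp3 at 1977.8 to 2721.8. The steroidogenic genes Cyp11a1 (at most 24.7) and Cyp17a1 (at most 18.7) lay below the filter level on all 4 arrays. Of the same marker list Hsd3b1, Star and Lhcgr were bright enough to be tested, and Insl3 was not. Hsd3b1 had 282.9 and 166.2 in control and 1840.3 and 311.8 with AMH. It made up most of the theca and steroidogenic sum on AMH replicate 1. Star had 72.7 and 98.2 in control and 382.9 and 86.5 with AMH. Marker levels of several cell types moved with AMH, and their part in the lipid gene values was not tested. The summed intensity of granulosa markers was 2502 and 2054 in control and 5384 and 3311 with AMH (2 of 6 tested rose), and that of oocyte markers 7667 and 7452 against 5920 and 5970 (3 of 6 fell). Red blood cell markers summed to 1406 and 1218 against 100.3 and 84.5 (1 of 2 fell), macrophage markers to 1186 and 1093 against 855.4 and 2091 (1 of 7 rose), theca and steroidogenic markers to 421.5 and 329.8 against 2324 and 468 (none of 3 called) and endothelial markers to 932.6 and 972.2 against 955.3 and 1124 (none of 6 called).

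The stretch before the start of a gene is shown for G0s2, the member with the largest difference, for Pnpla2, whose product it inhibits, and for Plin2, the droplet coat gene. RefSeq's table for the rat assembly GRCr8 held such a stretch for 6 of the 10 members, and the 250 bases upstream of the annotated start are printed. Capitals mark TATAA (the TATA box core) or CACGTG (an E-box), searched on both strands. G0s2 lies at chr13:107335949-107336198 (minus strand), Pnpla2 at chr1:205982029-205982278 (plus strand) and the first of 2 Plin2 starts at chr5:106229019-106229268 (minus strand).
G0s2: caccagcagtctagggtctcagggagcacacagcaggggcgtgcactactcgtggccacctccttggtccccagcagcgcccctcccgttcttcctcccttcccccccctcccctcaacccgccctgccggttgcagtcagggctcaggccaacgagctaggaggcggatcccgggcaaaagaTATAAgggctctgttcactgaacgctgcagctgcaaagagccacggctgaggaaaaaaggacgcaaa
Pnpla2: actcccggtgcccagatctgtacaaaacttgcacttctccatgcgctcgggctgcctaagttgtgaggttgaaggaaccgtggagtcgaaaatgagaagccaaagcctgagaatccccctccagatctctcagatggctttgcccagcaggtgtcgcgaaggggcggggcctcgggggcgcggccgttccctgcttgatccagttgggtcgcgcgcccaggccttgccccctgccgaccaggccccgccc
Plin2: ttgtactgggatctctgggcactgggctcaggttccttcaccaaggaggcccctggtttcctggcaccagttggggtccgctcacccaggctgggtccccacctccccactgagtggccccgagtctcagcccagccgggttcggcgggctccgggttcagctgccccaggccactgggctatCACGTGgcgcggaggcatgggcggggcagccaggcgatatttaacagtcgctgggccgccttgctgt
The G0s2 stretch held TATAA at position -67 counted from the start, a string present in 24% of 33469 rat stretches of this length. The printed Plin2 stretch held CACGTG at -67, against 5.59% of all stretches, and the Pnpla2 stretch held neither. Searches for AGGTCA (a nuclear receptor element, in 14.1% of stretches), GGCGCC (a GC-rich element bound by BMP-activated SMADs, 8.69%) and TGACG (the core of a cAMP response element, 18.2%) found none in these 3. The stretch before the second Plin2 start, not printed, held none of the strings searched for, CACGTG included. Such matches are letters in a window, and binding was not measured.

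G0s2, the inhibitor of ATGL, was about 3.28-fold higher with AMH on the deposited scale. There Pnpla2 (-0.01), Abhd5 (0.04) and Plin2 (0.16) differed little, but 2 arrays per group leave wide 95% intervals. These were -0.48 to 0.46 for Pnpla2, -0.32 to 0.40 for Abhd5 and -0.21 to 0.53 for Plin2. With hybridization control scaling the 3 genes gave -0.43, -0.42 and -0.31, and G0s2 gave 1.25. At the brightest probe sets 1 of the 10 members was called higher, none lower and 9 were not called, against 22.9% of all tested genes called. The groups did not overlap for 4 of the 10 (G0s2, Mgll, Plin2 and Lpl), against 64.5% of tested genes. Of these, Mgll entered the fit only through its AMH arrays. The median difference of the 10 was 0.01, beside 0.07 for all tested genes, and 6 of the 10 lay within 0.25 of 0. Of the 13 tested probe sets 2 were called (G0s2 and the dimmer Dgat2 probe set), against 21.5% of all tested probe sets. Since the members were chosen with this comparison known, nothing is read from these shares.

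**Figure D1:**
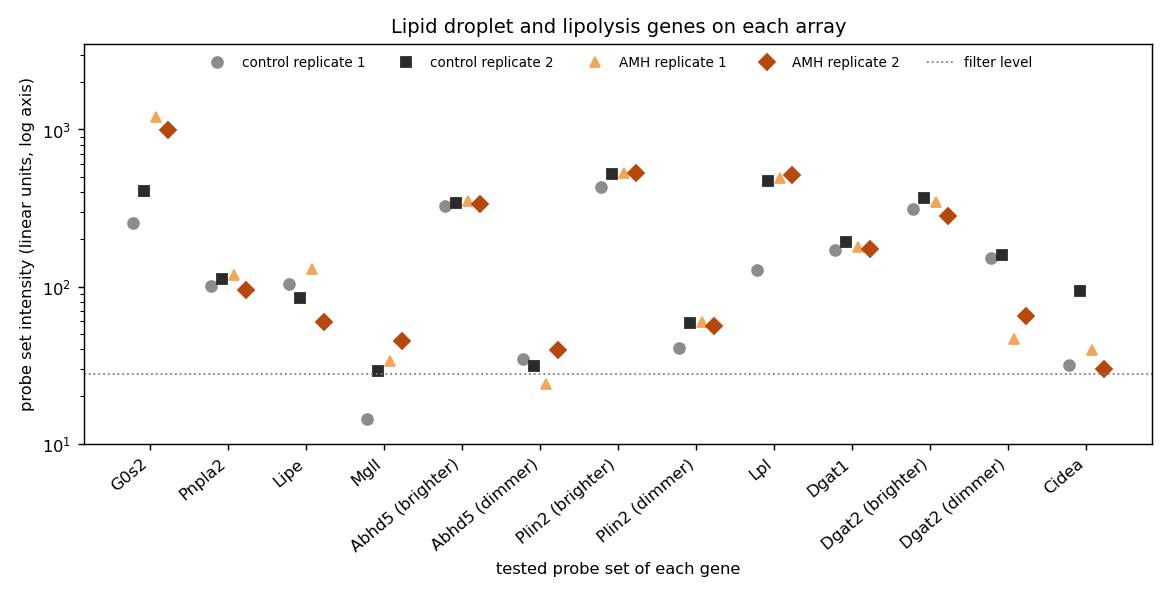
Intensity of the 13 tested probe sets of the 10 genes on each of the 4 arrays, on a log axis; each point is 1 array and the dotted line is the filter level of 27.8. G0s2 is high on both AMH arrays, Lpl is low on control replicate 1 alone, Cidea is high on control replicate 2 alone, and only the dimmer of the Dgat2 probe sets is low with AMH.

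Among the genes of lipolysis, G0s2 had intensities of 252.7 and 407.2 in control and of 1199.2 and 992.6 with AMH. Each AMH array was above each control array, and the difference was 1.72 ± 0.23. Leaving out 1 array at a time gave 1.39 (without control replicate 1) to 2.04 (without control replicate 2). Scaling the arrays to hybridization controls gave 1.25. The control arrays themselves lay apart, with replicate 2 at 1.61 times replicate 1.

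Pnpla2, which encodes ATGL, had 101.3 and 112.5 in control and 118.4 and 94.7 with AMH. These overlap, and the difference was -0.01 ± 0.21. Abhd5, the activator, had 327.2 and 338.7 in control and 349.7 and 335.4 with AMH, a difference of 0.04 ± 0.16. Its dimmer probe set, near the filter level at 24 to 39.7, gave -0.05 ± 0.28. With hybridization control scaling, which moved the median of all tested probe sets to -0.39, Pnpla2 gave -0.43 and Abhd5 -0.42.

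Lipe, the hormone-sensitive lipase gene, had 103.9 and 84.5 in control and 130.2 and 59.5 with AMH. Its AMH arrays lay on either side of the controls, and the difference was -0.06 ± 0.31. Without AMH replicate 2 it was 0.41, and without AMH replicate 1 it was -0.54. A second Lipe probe set was too dim to be tested (14.3 and 21.6 in control, 4.5 and 2.9 with AMH).

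Mgll, which encodes the lipase of the last step, was near the filter level throughout. Its single tested probe set had 14.4 and 29.1 in control and 33.8 and 45.3 with AMH, a difference of 0.58 ± 0.30. With 64 in place of 16 added before the log this became 0.28. The other 3 Mgll probe sets were below the filter, at 0.9 to 32.8, and all of them gave negative differences (-0.26 to -0.79). The Mgll probe sets thus differed in sign, but at intensities around or below the filter level, so no direction is read from them.

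**Figure D2:**
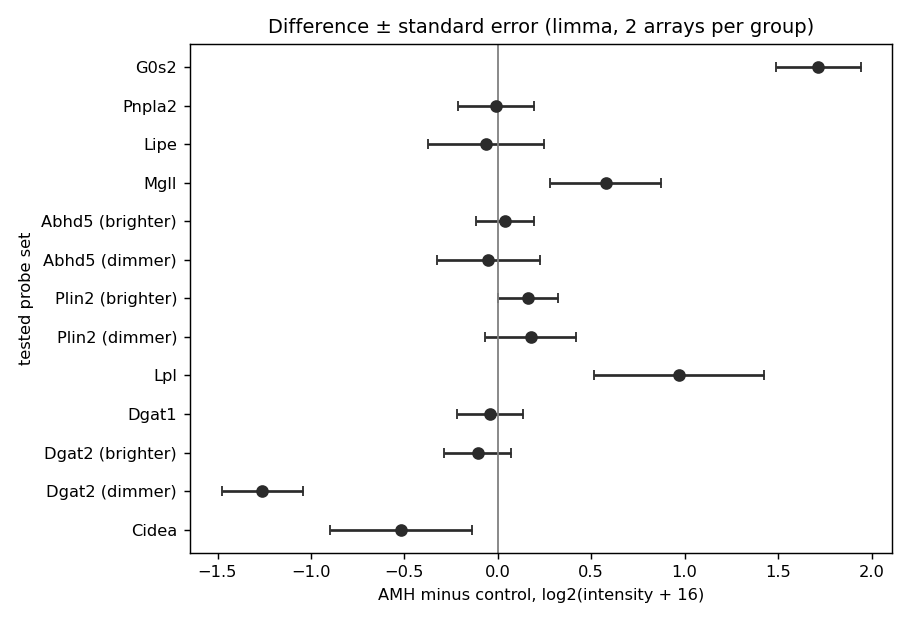
Difference between AMH and control for each tested probe set of the 10 genes, in log2(intensity + 16); points are limma estimates and bars are ± 1 standard error (2 arrays per group). G0s2 (1.72) and the dimmer Dgat2 probe set (-1.26) lie furthest from 0, and the probe sets of Pnpla2, Abhd5, Plin2 and Dgat1 lie within 0.25 of it.

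Of the droplet surface genes, Plin2, the perilipin found on droplets of most cell types, had 428.7 and 519.2 in control and 527.6 and 530.9 with AMH. The AMH arrays were above both controls but by little, and the difference was 0.16 ± 0.16. The second Plin2 probe set gave 0.18 ± 0.24, from 40.8 and 58.6 to 59.1 and 56. With hybridization control scaling the brighter probe set gave -0.31, so the sign depends on the scale. Cidea, a droplet fusion protein typical of brown fat, had 31.9 and 93.5 in control and 39.6 and 30 with AMH. Control replicate 2 stood alone. The difference of -0.52 ± 0.38 became 0.08 without that array and -1.11 without control replicate 1.

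Of the synthesis enzymes, Dgat1 had 171.1 and 192.4 in control and 179.6 and 172.3 with AMH, a difference of -0.04 ± 0.18 (-0.48 with hybridization control scaling). Dgat2, the other enzyme of this last step, gave different results at its probe sets. The brighter had 311.1 and 365.4 in control and 344.9 and 281.8 with AMH, which overlap (-0.11 ± 0.18). The dimmer had 151 and 158.4 in control but 46.5 and 65.1 with AMH, with no overlap (-1.26 ± 0.22, 2.4-fold lower). Averaged over both probe sets Dgat2 gave -0.68. The place of each probe set along the transcript was not used here, and the part of the 3′/5′ ratio in this disagreement was not tested.

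Lpl, the lipoprotein lipase that frees fatty acids from circulating lipoproteins at the cell surface, had 128 and 468.8 in control and 489 and 514.2 with AMH. One control array was low and the other 3 arrays were close together. The difference of 0.97 ± 0.46 was 1.85 without control replicate 2 and 0.09 without control replicate 1.

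The control arrays lay far apart for Lpl and Cidea. Control replicate 2 exceeded replicate 1 by 1.75 (log2) for Lpl, a gap that 21 of 10622 tested genes (0.198%) matched or passed, and by 1.19 for Cidea, matched or passed by 44 genes (0.414%). For G0s2 the gap was 0.66, matched or passed by 2.19% of genes. The other 7 members had gaps of -0.25 (Lipe) to 0.57 (Mgll). Only 0.668% of tested genes were at least 2-fold higher on control replicate 2 on this scale, and 2 of the 10 members were among them. Between the AMH arrays the gaps of Lpl (0.07) and Cidea (-0.27) were small, and among the members Lipe had the widest (-0.95).

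Several adipocyte markers also differed between the control arrays. Fabp4, the fatty acid binding protein of fat cells, had 50.1 on control replicate 1 and 783.1 on control replicate 2, against 95.8 and 254.8 with AMH. Cfd, the fat cell protease adipsin, had 4.1 and 109.5 in control and 34.7 and 25.8 with AMH. Adipoq, the fat hormone adiponectin, had 17.5 and 79.9 in control and 46 and 75.5 with AMH. Over the 9 of 10 listed adipocyte markers with a probe set, the summed intensity was 187.8 and 1113 in control and 352.7 and 507.6 with AMH. Of the 5 that were tested, 3 were at least 2-fold higher on control replicate 2, and none was called between AMH and control. Most of the sum on control replicate 2 was Fabp4. Pck1, a gluconeogenic and fat cell enzyme, had 32.5 and 36.9 in control, and the untested Lep (9.4 and 2) and Ucp1 (16.9 and 6.1) were lower on control replicate 2. Lep stayed below the filter level on all 4 arrays (at most 22.3). This list shares Fabp4, Plin1, Cidec and Adrb3 with the lipid lists below.

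The 15 named genes with the widest gap between the control arrays were looked up after these values were seen. They were led by Car3, a carbonic anhydrase abundant in fat and muscle (50.7 and 1228), and held Fabp4, Cfd and the glycerol phosphate dehydrogenase gene Gpd1 (16.7 and 167.3). They also held epithelial genes such as Slpi, Mmp7 and Muc4, so the gap was not limited to fat cell genes. Nor was it limited to the control arrays. AMH replicate 2 exceeded AMH replicate 1 (log2) by 1.33 for Car3, 1.28 for Fabp4, 1.22 for Slpi, 2.20 for Mmp7 and 0.76 for Muc4. Of the 15, only Cfd (-0.28) and Serpina3n (-2.62) were lower on AMH replicate 2. Macrophage and endothelial marker sums, given above, differed little between the control arrays. The part of adipocyte RNA in the values of Lpl, Cidea and G0s2 was not tested.

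**Figure D3:**
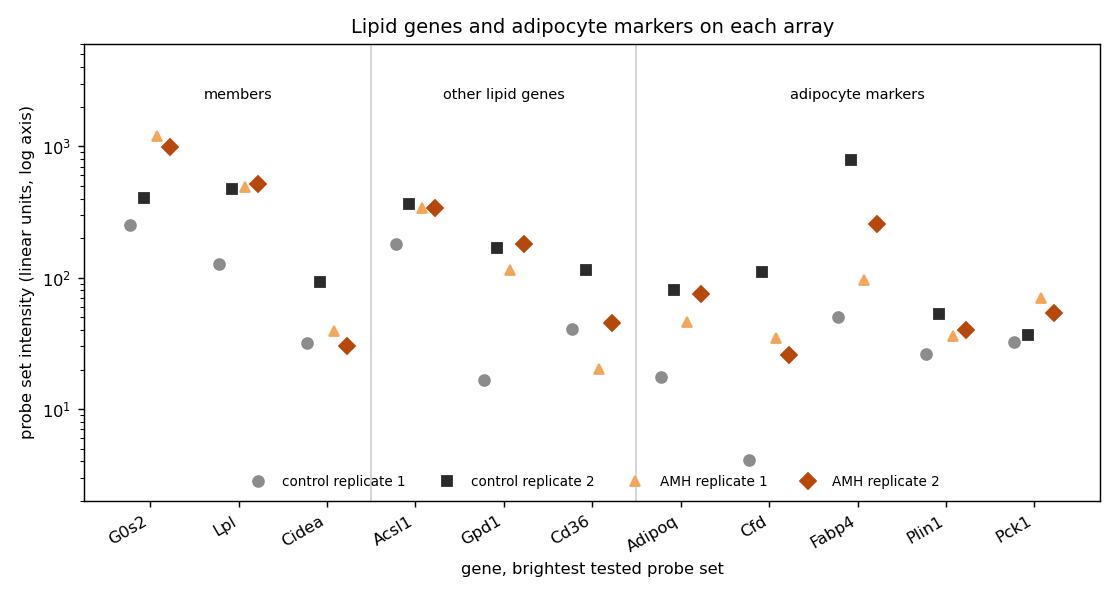
Intensity of 3 members, 3 other lipid genes and the 5 tested adipocyte markers on each of the 4 arrays, on a log axis; each point is 1 array. Control replicate 2 lies above control replicate 1 for all 11 genes. The 3 members and 3 other lipid genes (Gpd1, Acsl1 and Cd36) were picked by hand, so nothing is read from this count. Of the 102 other lipid genes tested, 4 were at least 2-fold higher on control replicate 2. G0s2 is the gene whose AMH arrays lie furthest above both controls.

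The genes whose pattern over the 4 arrays was closest to that of G0s2 were found by the distance between centred log2 profiles among 14041 tested probe sets. They were Fos (distance 0.19), an immediate early transcription factor, Scarb2 (0.21), a lysosomal membrane protein, Upk1b (0.27), a uroplakin, Ctsc (0.32), a lysosomal protease, and Srpx2 (0.36), a secreted protein. Fos had 87.6 and 153 in control and 411.8 and 325.4 with AMH. Upk1b had 71.6 and 149 in control and 376.6 and 290.4 with AMH. All 5 were high on both AMH arrays, and control replicate 2 exceeded replicate 1 in each. They were chosen for their likeness to G0s2 on these same arrays, so this pattern is no separate result. None of the 5 is in the lipid lists.

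Around these members, 139 other genes of lipid handling were listed in 6 groups, of which 128 had a probe set and 102 were tested. With AMH 12 rose, 9 fell and 81 were not called, so that 20.6% were called against 22.9% of all tested genes. Their median difference was 0.14, against 0.07 for all tested genes. The split depended on the scale: median centring gave 16 higher and 5 lower, hybridization control scaling 1 higher and 24 lower, and averaging over probe sets 8 higher and 13 lower. Without control replicate 1 the count was 8, without control replicate 2 it was 10 and without AMH replicate 2 it was 32. When dim probe sets were kept in it was 13. Apoe, Foxo1, Nr1h2 and Fads1 kept their call in all 14 alternatives, and the other 17 lost it in at least 1. Vldlr (0.66) and Scd2 (0.63) lost it with hybridization control scaling and in no other alternative. Of the remaining 15 genes, 14 lost it whichever control array was left out, and Apoc1 lost it without control replicate 1 (-1.08) but not without control replicate 2. These genes had 41 further tested probe sets, of which 4 were called higher (of Scd2 and Vldlr) and 7 lower. The 7 belong to Elovl5, Cav1, Scarb1, Agpat1, Gpat4, Daglb and Prkar1a, none of which was called at its brightest probe set. Those of Elovl5 and Cav1 entered the fit only through their control arrays. The adjusted p-values below are from limma with Benjamini-Hochberg adjustment over all tested probe sets.

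**Figure D4:**
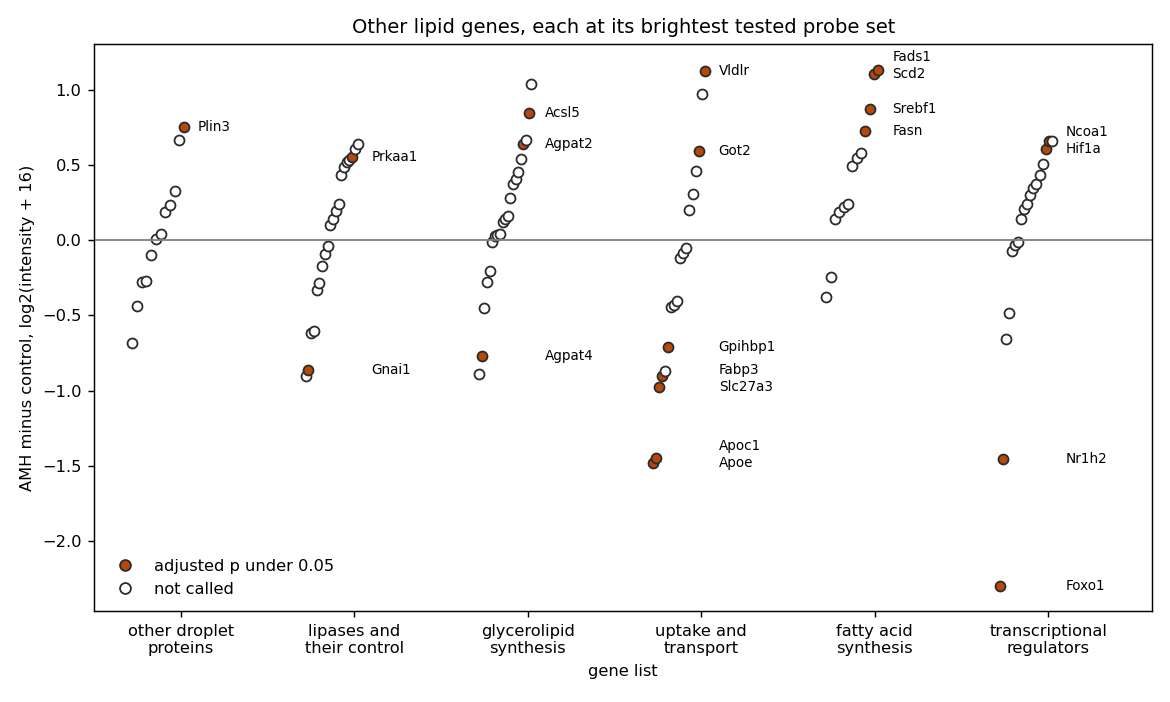
Difference between AMH and control, in log2(intensity + 16), for the 102 other lipid genes in 6 lists; each point is a gene at its brightest tested probe set, filled where the adjusted p was under 0.05. All 4 called genes of fatty acid synthesis lie above 0, and 5 of the 7 called genes of uptake and transport lie below it. The shares called in these lists were 30.8% and 38.9%, against 22.9% of all tested genes, and nothing is read from them.

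In fatty acid synthesis 4 of 13 tested genes rose and none fell, with a list median of 0.50 beside 0.07 for all tested genes. This is 30.8% called, against 22.9% of all tested genes. The lists were chosen with earlier results known, so nothing is read from this share. Fads1, a fatty acid desaturase, rose from 151.3 and 147 to 359.1 and 335.1 (1.14 ± 0.17, adjusted p = 0.00353). Scd2, a stearoyl-CoA desaturase, rose from 1653.5 and 1437.5 to 3773.9 and 2967.5 (1.11 ± 0.16, adjusted p = 0.00357), and 2 of its 3 further probe sets were called higher as well. Srebf1, the transcription factor that drives this pathway, rose by 0.88 ± 0.19 (adjusted p = 0.0145) and Fasn, fatty acid synthase, by 0.73 ± 0.17 (adjusted p = 0.0194). A second probe set gave -0.17 for Srebf1 and -0.07 for Fasn, neither called. The means over both probe sets, 0.35 for Srebf1 and 0.33 for Fasn, were not called either. With hybridization control scaling Srebf1 (0.43) and Fasn (0.26) were not called. Elovl5, a fatty acid elongase, gave 0.14 ± 0.16 at its brightest probe set and was not called, but a dimmer one was called lower (82.3 and 74.4 in control, 6.3 and 21 with AMH). Scd, the other desaturase of this family, gave 0.19 ± 0.23 and was not called.

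Genes of uptake and lipid transport moved both ways, with 2 of 18 higher and 5 lower (38.9% called, against 22.9% of all tested genes). Apoe, the apolipoprotein bound by lipoprotein receptors, fell from 2888.7 and 2602.5 to 963.3 and 979.7 (-1.48 ± 0.14, adjusted p = 0.000601). Vldlr, a receptor for such particles, rose from 196.1 and 269.1 to 517.3 and 523.3 (1.12 ± 0.19, adjusted p = 0.0057), with 2 of its 3 further probe sets called higher. Gpihbp1, which anchors LPL on capillaries, fell by 0.71 ± 0.21 (adjusted p = 0.0445). Of the 7 endothelial markers with a probe set, 5 overlapped between the groups. Among all tested genes 64.5% did not overlap, a share that leaves out dim genes such as Vwf. Flt1 (45.7 and 49.2 in control, 69.8 and 64.1 with AMH) was higher on both AMH arrays but not called. Vwf (20.8 and 15.4, 27.5 and 45.7) was higher on both but too dim to be tested. These marker values are given as a description, and the part of endothelial cell content in the Gpihbp1 value was not tested. Fabp3, a fatty acid binding protein, fell by 0.90 ± 0.21 (adjusted p = 0.0208) and Slc27a3, a fatty acid transport protein family member, by 0.97 ± 0.23 (adjusted p = 0.0207).

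Apoc1, an apolipoprotein, fell by 1.45 ± 0.42 (adjusted p = 0.0431), with AMH arrays at 121.9 and 355.1, and the fall was 0.74 without AMH replicate 1. Got2, a mitochondrial transaminase also described as a fatty acid binding protein of the plasma membrane, rose by 0.60 ± 0.15 (adjusted p = 0.0257), and gave 0.12 with hybridization control scaling. Its second probe set gave 0.03 and the mean over both 0.32, neither called. Angptl4, a secreted inhibitor of LPL, had 71 and 162.2 in control and 318.5 and 162.3 with AMH. It was not called (0.97 ± 0.38), though it was without control replicate 2 (1.49) or without AMH replicate 2 (1.43). Cd36, a fatty acid receptor, had 40.6 and 113.6 in control and 20.1 and 45 with AMH and was not called (-0.87 ± 0.41), though it was without control replicate 1 (-1.47) and with hybridization control scaling (-1.20). Fabp4 was not called with all arrays (-0.40 ± 0.95), was called lower without control replicate 1 (-2.20) and was called higher without control replicate 2 (1.40).

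Of 12 other droplet protein genes 1 rose at its brightest probe set (8.33% called, against 22.9% of all tested genes). Plin3, a perilipin of small droplets, rose from 829.7 and 717.5 to 1139.6 and 1507.6 (0.75 ± 0.18, adjusted p = 0.0203), and gave 0.28 with hybridization control scaling. Hilpda, which like G0s2 inhibits ATGL, had 353.3 and 389.1 in control and 272.8 and 265.6 with AMH. It was lower on both AMH arrays but not called (-0.44 ± 0.16, adjusted p = 0.0855), and was called lower with hybridization control scaling (-0.90). Plin1, the perilipin of fat cells, had 26.1 and 52.5 in control and 36.2 and 39.9 with AMH (0.01 ± 0.30). Cav1, caveolin, gave 0.67 ± 0.33 at its brightest probe set and was not called, while a dimmer one was called lower (96.9 and 81.8 in control, 2.2 and 27.1 with AMH). Plin4, Plin5, Cideb and Cidec were below the filter.

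Among 20 lipases and genes that control lipolysis, 1 rose and 1 fell (10% called, against 22.9% of all tested genes). Prkaa1, a catalytic subunit of AMP-activated kinase, rose by 0.56 ± 0.16 (adjusted p = 0.0408), and gave 0.10 with hybridization control scaling. Prkaa2, the alternative catalytic subunit, gave -0.90 ± 0.35 and was not called. Gnai1, an inhibitory G protein subunit, fell by 0.87 ± 0.25 (adjusted p = 0.0398), its AMH arrays (23.7 and 33.2) lying around the filter level. Lipa, the lysosomal acid lipase gene, had 279.5 and 290 in control and 218.9 and 226.5 with AMH and was not called (-0.33 ± 0.16), though it was called lower with hybridization control scaling (-0.79).

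Among 21 genes of glycerolipid synthesis 2 rose and 1 fell (14.3% called, against 22.9% of all tested genes). Acsl5, which activates fatty acids, rose by 0.85 ± 0.19 (adjusted p = 0.0161), Agpat2, which makes phosphatidic acid, rose by 0.64 ± 0.19 (adjusted p = 0.0436), and Agpat4, of the same enzyme family, fell by 0.77 ± 0.21 (adjusted p = 0.0363). With hybridization control scaling Acsl5 gave 0.41 and Agpat2 0.21, neither called. The second Acsl5 probe set gave 0.35 and was not called, nor was the mean over both (0.60). Gpam, which starts this pathway, gave 0.46 ± 0.28 from 30.8 and 17.9 to 39.4 and 38. Soat1, which makes cholesterol esters, gave 0.41 ± 0.18, and its second probe set gave -0.92; neither was called. Gpd1 gave 1.04 ± 0.66, with 16.7 on control replicate 1 and 114.8 to 178.8 on the other arrays, the pattern of Lpl.

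Of 18 tested transcriptional regulators 2 rose and 2 fell (22.2% called, against 22.9% of all tested genes). Foxo1, a forkhead factor restrained by insulin signalling, fell from 228.1 and 192.3 to 24.5 and 35.9 (-2.30 ± 0.23, adjusted p = 0.000708), and its AMH values lie around the filter level. Nr1h2, an oxysterol receptor, fell from 338.9 and 317 to 117.2 and 101.4 (-1.46 ± 0.18, adjusted p = 0.00166). Ncoa1, a nuclear receptor coactivator, rose by 0.66 ± 0.15 (adjusted p = 0.0192) and Hif1a, the hypoxia factor, by 0.61 ± 0.16 (adjusted p = 0.0318). With hybridization control scaling they gave 0.19 and 0.13. Pparg, the regulator of fat cell genes, had 23.6 and 52.1 in control and 33 and 36.5 with AMH (-0.03 ± 0.31). Ppara was below the filter, at 1.6 to 3.3.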

How the data were processed

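The authors deposited linear intensities for 31099 probe sets on each of 4 arrays. Biotin-labelled RNA was hybridised by standard Affymetrix procedures, per the labels' protocols. How probes were summarised is not given in the sources. Trimmed of 2 percent at either end, the intensities averaged 125.03 on every array, a common scale set before deposit. Groups came from the sample titles. Nothing in the labels pairs samples of the same number across groups. Over all tested probe sets the correlation of their deviations was -0.00082. That value does not speak for single genes. Most of the 15 genes with the widest control gap were also higher on AMH replicate 2, as given above.

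Intensities were turned into log2(intensity + 16). Left out were 57 control probe sets and, by mean, the dimmest 40 percent of the rest. The comparison used limma 3.58.1 in R 4.3.3 (lmFit, then eBayes with trend; 2 residual and 6.33 prior degrees of freedom), with Benjamini-Hochberg adjustment over all tested probe sets. The script was tested on simulated data. With 2 arrays per group the p-values rest on the pooled spread, and the number of arrays limits precision.

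Only probe sets with 1 symbol were named. All 10 members matched RefSeq by Entrez identifier. The members and lists were chosen with earlier results of these data known. Named genes are all members, all called genes of the 6 lists (up to 4 in each direction), 14 lipid genes always named where measured, and the 5 nearest to G0s2. Gpd1, Acsl1, Prkaa2, Car3, Slpi, Mmp7, Muc4 and Serpina3n are outside this rule. So are genes with a further probe set called lower, the markers and untested genes given for context. All of these were chosen after their values were seen. Alternatives were other scalings, constants and filters, averaging over probe sets, eBayes without trend, leaving out each array and a replicate block.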

Additional observations from a re-analysis of the deposited data

How the results depend on the processing

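Of the probe sets, 3999 were called in all, and leaving out 1 array gave 1434 to 5126 (1434 without control replicate 1 and 1760 without control replicate 2). Of the 10 members 1 was called, 2 with the mean over probe sets, and 1 to 2 when an array was left out. Of the other lipid genes 21 were called, 13 with no filter, and 8 to 32 when an array was left out (8 without control replicate 1, 10 without control replicate 2 and 32 without AMH replicate 2). Fits without an array take their spread from the group that still holds both, and the cause of the changed counts was not tested. Fabp4 reversed without control replicate 2, to 1.40, against -2.20 without control replicate 1. The replicate block gave 3566 probe sets, 1 member and 18 other lipid genes. It ended the calls of Prkaa1, Gnai1, Agpat2, Hif1a and Gpihbp1. By the labels the samples share only a number. The median difference of all tested probe sets was 0.02 as deposited, 0.12 with median centring and -0.39 with hybridization control scaling, and the share of calls that were lower was 59.6%, 47.9% and 97.2%. G0s2 was higher in all 14 alternatives (1.25 to 2.04). Mgll, Cidea and several adipocyte markers lay near the filter level on at least 1 array, where their size depends on the constant added.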
